A study of Mus musculus with 36 samples.

Results

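The genes described are 10 members of the leukemia inhibitory factor (LIF) pathway, taken by symbol from the 21516 genes of the deposited count tables. They are the receptor subunits Lifr and Il6st, the transcription factor Stat3, and 7 genes reported as its direct targets in mouse embryonic stem cells (Socs3, Klf4, Klf5, Tbx3, Junb, Pim1 and Gbx2). All 10 had enough counts to be tested. The values come from 36 bulk 3′ RNA sequencing libraries of FUCCI mouse embryonic stem cells, a 129/sv line that carries transgenes reporting the cell cycle phase, with 3 libraries for each of 12 culture conditions. Cells of all groups grew with LIF for about 18 h to about 24% confluence and were then treated for 72 h, and the baseline medium held 15% serum.

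The reference group, labelled Normal Stemness (NS), kept LIF at 1000 U/mL. The group labelled Normal Differentiation (ND) had no LIF, and the RA group had no LIF and received RA, here read as retinoic acid, at 1 µM. All remaining groups kept LIF. Sorb300 received sorbitol at 300 mM. For the 8 toxicant groups the number in the name is the dose in µM: BP1 and BP4, Cort10 and Cort60 (cortisol), DEP5 and DEP10, and PFOA60 and PFOA100. BP, DEP and PFOA are written as in the labels. Of each pair, the lower dose was the lowest that affected growth in a live imager and the higher one suppressed growth by 75%. A single cell line was used, RA differs from NS by the drug and by the loss of LIF together, and all comparisons with NS share its 3 libraries.

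LIF binds its receptor subunit, encoded by Lifr, which pairs with gp130, encoded by Il6st and shared by the receptors of the interleukin-6 family. JAK kinases bound to the receptor then phosphorylate STAT3, which forms dimers, enters the nucleus and binds palindromic sites near its target genes, while the same receptor also activates the PI3K and ERK branches through SHP2. In mouse embryonic stem cells LIF holds self-renewal, and target transcription factors such as Klf4, Klf5, Tbx3 and Gbx2 can each replace part of the LIF requirement when overexpressed.

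The promoter windows are shown for 2 targets whose levels differed among the conditions in different ways, Socs3 and Klf4. Each window runs from 250 bases before to 50 bases after the start of the gene in RefSeq (GRCm38.p6) and is written 5′ to 3′ on the strand of the gene. RefSeq windows were matched by symbol for 8 of the 10 genes, 10 windows in all with a pair each for Lifr and Pim1. Klf5 and Tbx3 are named only. In Socs3, at chr11:117969317-117969616 on the minus strand, the capitals mark the only match to the STAT palindrome TTCNNNGAA, which begins 154 bases before the start. In Klf4, at chr4:55532426-55532725 on the minus strand, they mark 4 matches on either strand to GGGCGG, the GC-rich core that Sp1 and Krüppel-like factors bind.
Socs3: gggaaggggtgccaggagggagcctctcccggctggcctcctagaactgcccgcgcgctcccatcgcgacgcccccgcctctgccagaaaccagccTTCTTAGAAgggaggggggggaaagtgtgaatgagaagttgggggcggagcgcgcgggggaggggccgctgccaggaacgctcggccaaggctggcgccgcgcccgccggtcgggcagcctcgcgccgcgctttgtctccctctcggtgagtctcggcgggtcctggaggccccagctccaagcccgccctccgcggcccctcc
Klf4: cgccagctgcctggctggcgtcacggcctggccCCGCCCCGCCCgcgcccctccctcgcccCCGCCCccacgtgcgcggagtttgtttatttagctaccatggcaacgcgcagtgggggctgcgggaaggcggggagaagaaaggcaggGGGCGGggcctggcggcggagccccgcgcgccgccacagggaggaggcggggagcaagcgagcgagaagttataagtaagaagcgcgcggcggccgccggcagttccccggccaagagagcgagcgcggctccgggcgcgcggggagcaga

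The palindrome TTCNNNGAA, which reads the same on both strands, was found in 1 of the 10 windows, that of Socs3, and 8.29% of all 32817 RefSeq windows of that length hold it. GGGCGG on either strand was found in 7 of the 10 windows and in 7 of the 8 genes, all but Junb, against 35.63% of all windows. The 7 windows with GGGCGG held 60.7% to 81.3% G and C, where the median of all windows was 52.7%. The Socs3 window also holds 2 GGGCGG matches, and the letters of these motifs cannot overlap. These are matches of letters within 300 bases and not measured binding sites.

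Levels are given as CPM, counts relative to the library total after trimmed-mean scaling, each mean with its SD over 3 libraries. The 36 libraries held between 1848254 and 7288084 counts, the median being 4822563. A count of 0 allows a level of up to 0.41 to 1.62 CPM depending on the library, on raw library totals without this scaling. This limit is taken as 3 counts and covers counting error only. Differences were tested for 13498 genes with edgeR's quasi-likelihood test in 1 fit of all groups, with Benjamini-Hochberg adjustment over all genes tested, and a gene is called at an adjusted p under 0.05. Replicate libraries of the same group differed by more than counting error, and Sorb300 replicate 1 stood furthest from the others of its group. In bulk RNA, fewer cells that express a gene and less of its RNA per cell cannot be told apart.

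The pluripotency markers used to check the culture (Pou5f1, Sox2, Nanog, Zfp42, Dppa5a, Esrrb, Utf1, Tdgf1, Fgf4 and Dppa4) were all detected in every group. Their summed level was 3660 to 4420 CPM in NS, 2740 to 4420 CPM in the toxicant groups, 3510 to 4140 CPM in Sorb300, 2220 to 2920 CPM in ND and 496 to 841 CPM in RA. Pou5f1, which encodes OCT4, had a mean of 29.4 ± 5.44 CPM in NS, 18.1 ± 3.65 CPM in ND, 29.2 ± 8.08 CPM in Sorb300 and 2.15 ± 0.982 CPM in RA. Extraembryonic endoderm markers summed to 1030 to 1280 CPM in NS, 723 to 1140 CPM in ND, 2110 to 3800 CPM in RA and 2080 to 4090 CPM in Sorb300. Sparc alone made up 1030 of the mean sum of 1120 CPM in NS and 819 of 887 CPM in ND. In RA it made up 2550 of 3180 CPM and in Sorb300 2800 of 3050 CPM. Trophoblast markers summed to 205 to 243 CPM in NS, 70.6 to 115 CPM in ND, 272 to 410 CPM in RA and 396 to 689 CPM in Sorb300. Tcfap2c alone made up 152 of the mean sum of 229 CPM in NS and 47.8 of 97.8 CPM in ND. Fibroblast markers summed to 567 to 616 CPM in RA, 55.5 to 134 CPM in NS, 64.9 to 101 CPM in ND and 33.7 to 61.5 CPM in Sorb300. Early neural markers summed to 73 to 121 CPM in NS, 75.6 to 99.1 CPM in ND, 62.2 to 107 CPM in RA and 118 to 323 CPM in Sorb300. In Sorb300 Tubb3 alone, a neuronal tubulin gene, made up 241 of the mean sum of 254 CPM. Nes (nestin) and Mtap2, a microtubule-associated protein gene, fell there, and the median log2 fold change of the early neural markers tested was -0.81. Against NS, all 10 pluripotency markers fell in RA and 3 of 10 in ND, whereas in Sorb300 1 rose and 1 fell. Of 9 extraembryonic endoderm markers tested, 8 rose in RA, 5 in Sorb300 and none in ND. Of 9 trophoblast markers tested, 3 rose and 1 fell in RA, 6 rose in Sorb300, and 1 rose and 1 fell in ND. Of 8 fibroblast markers tested, 6 rose and 1 fell in RA, 2 fell in Sorb300 and none was called in ND. Of all genes tested, 10.3% rose and 13.8% fell in RA, 15.1% and 15.2% in Sorb300, and 0.259% and 0.933% in ND. In every marker list at least 6 of the 10 genes were above 0 in each group, and Elf5 in RA and Postn, Lum and Dcn in Sorb300 were among those at 0. The ND, RA and Sorb300 results below stand beside these shifts in marker levels, and the part of the shifts in those results was not tested.

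**Figure D1:**
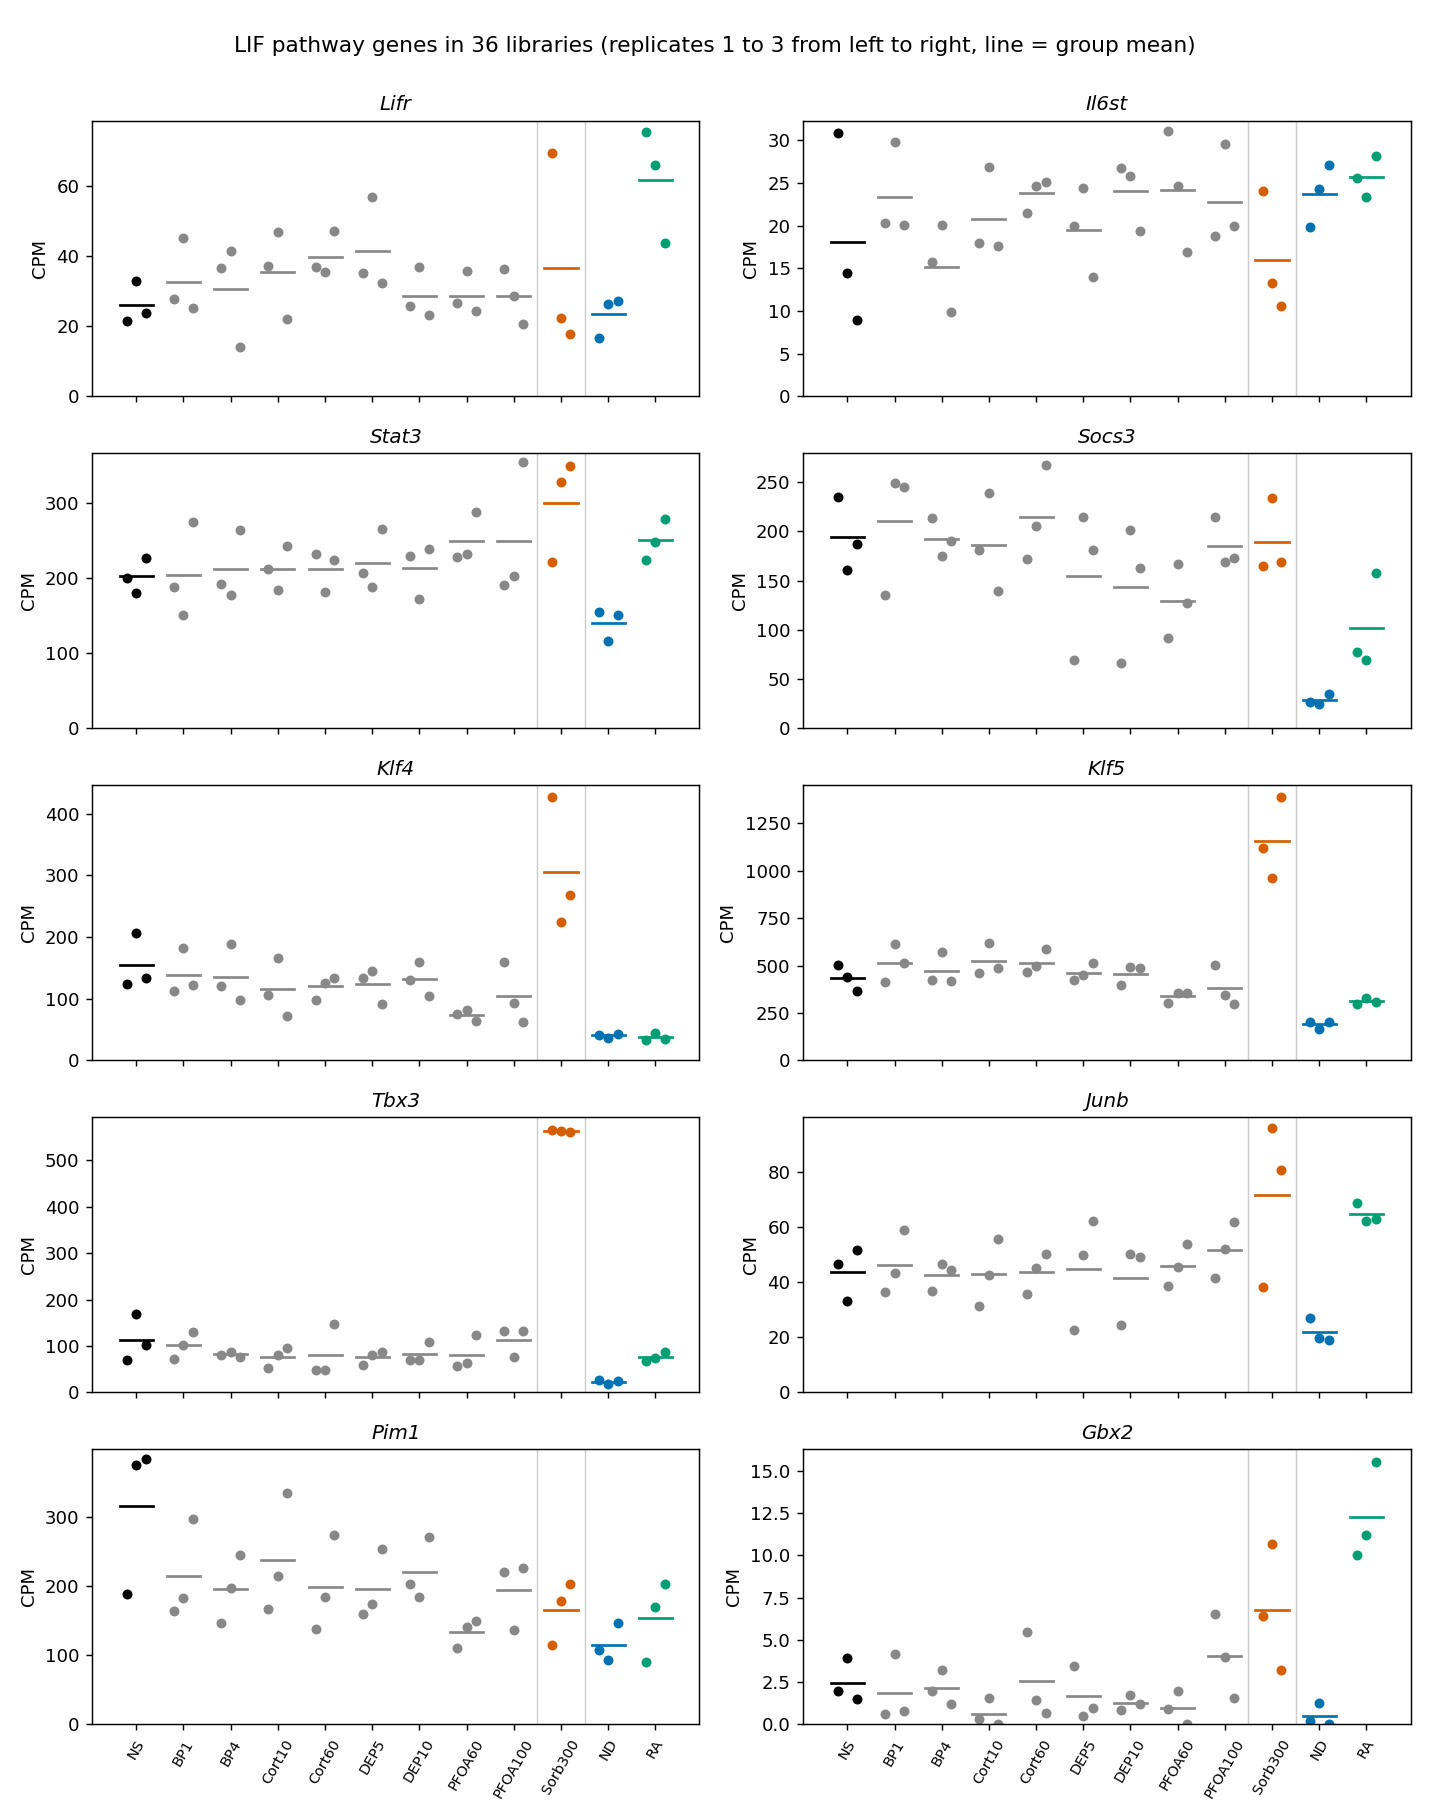
Level of each of the 10 genes in every library, in CPM on a linear axis that starts at 0 and differs between panels; points are replicates and the horizontal line is the group mean. Socs3 was at 24.8 to 34.6 CPM in ND and Tbx3 at 561 to 565 CPM in Sorb300, both apart from all other groups.

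After 72 h without LIF, 5 of the 10 genes fell and none rose: Socs3, Klf4, Klf5, Tbx3 and Pim1. Of all genes tested, 0.933% fell and 0.259% rose in the same comparison. The median log2 fold change of the 10 genes was -1.32 against 0.01 over all genes tested. In 8 of the 10 every ND library was below every NS library, as it was for 11.5% of all genes tested. The receptor subunits were the exceptions.

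Lifr stood at 21.6, 32.9 and 23.8 CPM in the NS libraries and 16.7, 26.2 and 27.3 CPM in the ND libraries. The groups overlapped, and the log2 fold change was -0.16 (95% interval -0.95 to 0.63, adjusted p = 0.893). Il6st was at 30.9, 14.5 and 8.94 CPM in NS and 19.8, 24.3 and 27.1 CPM in ND. The NS libraries spread over the whole ND range, and the log2 fold change was 0.41 (interval -0.292 to 1.11, adjusted p = 0.641). Stat3, the signal transducer, was at 200, 181 and 227 CPM in NS and 155, 117 and 151 CPM in ND. Every ND library was below NS, but the log2 fold change of -0.52 ± 0.24 (SE) did not pass (adjusted p = 0.347).

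Socs3, which encodes the feedback inhibitor that binds gp130 and the JAK kinases, had the largest fold of the 10. Its level was 235, 161 and 187 CPM in the NS libraries and 26.9, 24.8 and 34.6 CPM in the ND libraries. The groups were far apart, and the mean fell from 194 ± 37.5 to 28.8 ± 5.19 CPM, 6.74-fold (log2 fold change -2.75 ± 0.38 SE, adjusted p = 0.000114). The call held without each of the 6 libraries in turn, with adjusted p from 0.000369 to 0.00838.

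Among the target transcription factors, Klf4, a reprogramming factor, was at 124, 206 and 134 CPM in NS and 41.2, 37 and 43 CPM in ND. Its level did not overlap and fell 3.83-fold (-1.94 ± 0.32 SE, adjusted p = 0.000847). Tbx3, a T-box repressor tied mainly to the PI3K branch of LIF signalling, was at 68.8, 168 and 103 CPM in NS and 27.5, 18.2 and 24.4 CPM in ND. It fell 4.86-fold (log2 fold change -2.28 ± 0.37 SE, adjusted p = 0.000847), although the NS libraries themselves varied more than those of ND. Klf5, a related Krüppel-like factor, was at 501, 438 and 367 CPM in NS and 204, 166 and 205 CPM in ND. It fell 2.27-fold (log2 fold change -1.18 ± 0.21 SE, adjusted p = 0.00226). The calls of Klf4, Klf5 and Tbx3 held without each of the 6 libraries in turn.

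Junb, an AP-1 subunit, was at 46.8, 33.2 and 51.7 CPM in NS and 26.9, 19.6 and 18.9 CPM in ND. All ND libraries were lower, and the log2 fold change of -1.01 ± 0.32 (SE) had an adjusted p of 0.117. Same-numbered ND and NS libraries deviated together. In the fit that blocks on replicate number, Junb fell by 0.98 on the log2 scale (adjusted p = 0.0246). Under the block 215 genes rose and 340 fell over the whole table, against 35 and 126 without it. Gbx2, a homeobox factor, was near the detection limit with 6, 16 and 6 counts in NS and 1, 8 and 0 counts in ND. Its levels of 1.49 to 3.93 CPM in NS and 0 to 1.29 CPM in ND did not overlap, but its adjusted p was 0.302 at this depth.

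Pim1, a serine/threonine kinase that promotes survival, was at 189, 375 and 383 CPM in NS and 107, 93.7 and 146 CPM in ND. The groups did not overlap, although NS replicate 1 was close to the median of the toxicant libraries, 184 CPM. Pim1 fell 2.74-fold (log2 fold change -1.45 ± 0.33 SE, adjusted p = 0.0198). The call was lost without ND replicate 1, 2 or 3 and without NS replicate 2 or 3, with adjusted p up to 0.163, and its log2 fold change stayed between -1.71 and -1.28.

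**Figure D2:**
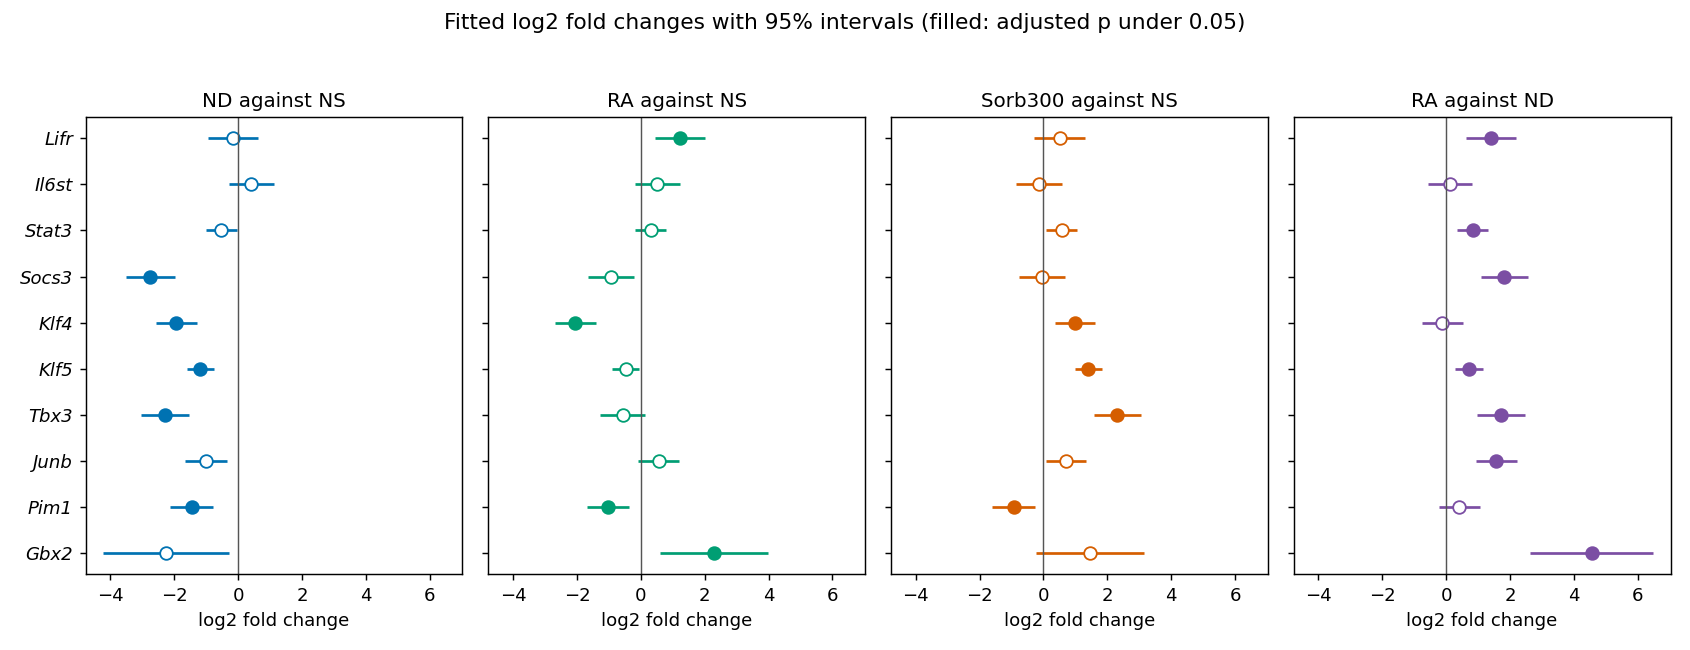
Fitted log2 fold change of each gene (horizontal axis) with its 95% interval in 4 comparisons; filled points passed an adjusted p of 0.05 and open points did not. In ND the 5 filled points are all below 0, from -2.75 for Socs3 to -1.18 for Klf5, whereas RA and Sorb300 have filled points on both sides of 0.

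RA, also without LIF, differed from NS in another pattern: Klf4 and Pim1 fell and Lifr and Gbx2 rose. Over all genes tested 10.3% rose and 13.8% fell, so 2 of 10 in each direction was close to the background. The median log2 fold change of the 10 genes was -0.08, against -0.00108 over all genes tested.

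Klf4 was at 32.9, 44.7 and 34.6 CPM in the RA libraries, as low as in ND and below all NS libraries. It fell 4.15-fold against NS (log2 fold change -2.05 ± 0.32 SE, adjusted p = 1.64e-05), and this call held without each library. Pim1 was at 90.8, 169 and 203 CPM in RA and fell 2.05-fold (log2 fold change -1.04 ± 0.32 SE, adjusted p = 0.0185), with overlap between RA replicate 3 and NS replicate 1. Socs3 was at 77.4, 69.6 and 158 CPM in RA, below every NS library. Its log2 fold change was -0.93 ± 0.36 (SE) with an adjusted p of 0.0529. Without RA replicate 3, the highest of its group, that value was -1.40 with an adjusted p of 0.0112.

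Lifr was at 75.3, 66 and 43.7 CPM in RA, above all NS libraries, and rose 2.35-fold (log2 fold change 1.23 ± 0.39 SE, adjusted p = 0.0195). Gbx2 was at 10, 11.2 and 15.5 CPM, from 64, 34 and 107 counts, the highest mean of all groups. It rose 4.89-fold against NS (log2 fold change 2.29 ± 0.84 SE, interval 0.596 to 3.98, adjusted p = 0.042). Lifr lost its call without NS replicate 1 or 3 or RA replicate 1 or 2, and Pim1 without NS replicate 2 or 3 or RA replicate 1. Gbx2 lost its call without NS replicate 1 or 3 or any RA replicate. Klf4 was thus the only gene called without NS replicate 3 or RA replicate 1, and 2 genes were called without RA replicate 2.

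The other members did not pass in RA against NS. Klf5 was at 299, 331 and 310 CPM, all below NS (log2 fold change -0.47, adjusted p = 0.0966). Tbx3 at 68.6, 73.9 and 87 CPM overlapped the 68.8 to 168 CPM of NS, with RA replicate 1 just below that range (-0.57, adjusted p = 0.247). Junb, at 68.7, 62.4 and 62.9 CPM, was above every NS library (0.56, adjusted p = 0.198). Stat3 at 224, 249 and 279 CPM (0.31, adjusted p = 0.365) and Il6st at 25.6, 23.3 and 28.2 CPM (0.52, adjusted p = 0.281) overlapped NS. Without NS replicate 1, its highest library for Il6st, that gene had a log2 fold change of 1.19 and an adjusted p of 0.0192.

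RA and ND both lack LIF, so their direct comparison holds LIF status constant. In it 7 of the 10 genes were higher in RA and none was lower, where 8.04% of all genes were higher and 10.1% lower. For these 7 every RA library was above every ND library, as for 20.9% of all genes tested. The median log2 fold change of the 10 genes was 1.11 against -0.04 over all genes.

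Against ND, RA had a 3.54-fold higher level of Socs3 (1.82 ± 0.37 SE on the log2 scale, adjusted p = 0.000556) and a 3.28-fold higher level of Tbx3 (1.71 ± 0.36 SE, adjusted p = 0.00101). Junb was 2.97-fold higher (1.57 ± 0.32 SE, adjusted p = 0.000571), and its 3 RA libraries lay within a range of 62.4 to 68.7 CPM against 18.9 to 26.9 CPM in ND. Gbx2 rested on 205 counts in RA and 9 in ND and was 23.5-fold higher in the fit (interval 2.62 to 6.49 on the log2 scale, adjusted p = 0.000753). Socs3, Tbx3, Junb and Gbx2 kept their calls without each library of these groups, although Socs3 lost its own (1.55, adjusted p = 0.0601) with the replicate 3 libraries of all groups left out.

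Lifr was 2.63-fold higher (adjusted p = 0.0101), Stat3 1.78-fold (adjusted p = 0.0133) and Klf5 1.63-fold (adjusted p = 0.0162). Each of these 3 calls was lost without some single libraries: Lifr without ND replicate 1 or RA replicate 1, Stat3 without ND replicate 2 or RA replicate 3, and Klf5 without ND replicate 2 or RA replicate 2. Klf4 showed no detected difference between the LIF-free groups (log2 fold change -0.12, interval -0.753 to 0.518, adjusted p = 0.845). Neither did Pim1 (0.42, interval -0.238 to 1.07, adjusted p = 0.413) or Il6st (0.12, interval -0.568 to 0.799, adjusted p = 0.859).

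**Figure D3:**
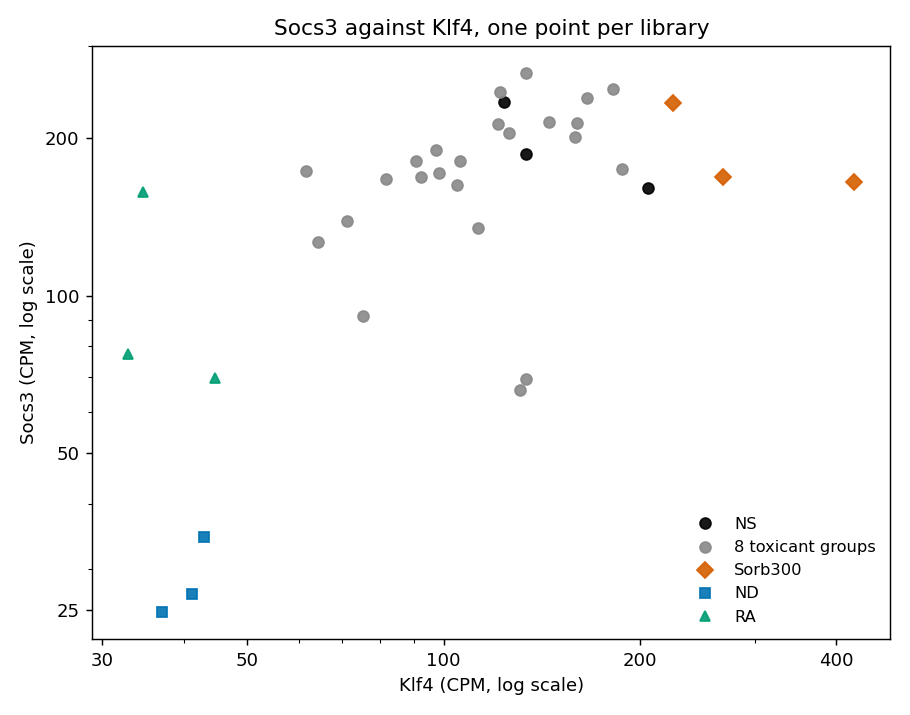
Socs3 against Klf4 in CPM, both axes on a log scale, with 1 point for each of the 36 libraries. All 6 libraries without LIF lie at 32.9 to 44.7 CPM for Klf4, while their Socs3 levels run from 24.8 to 158 CPM; Sorb300 has the highest Klf4 levels, 225 to 426 CPM, with Socs3 at 165 to 234 CPM.

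With ND and RA averaged as the groups without LIF and set against NS and the 8 toxicant groups, 27 libraries in all, 5 of the 10 genes were lower without LIF and none was higher. Of all genes 14.4% were lower and 14% higher. Klf4 had the only complete separation of the 10 (lowest 61.6, median 122 and highest 206 CPM with LIF; 32.9, 39.1 and 44.7 CPM without), as found for 0.282% of all genes. Its log2 fold change was -1.63 ± 0.19 (SE, adjusted p = 9.02e-08).

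Socs3 ran from 65.9 to 267 CPM with LIF, with a median of 181 CPM, and from 24.8 to 158 CPM without, with a median of 52.1 CPM (log2 fold change -1.71 ± 0.22 SE, adjusted p = 7.49e-07). Its lowest libraries with LIF were replicate 1 of DEP10 at 65.9 CPM and of DEP5 at 69.4 CPM, both below all 3 RA libraries. Klf5 (-0.88, adjusted p = 2.04e-06), Tbx3 (-1.06, adjusted p = 0.000312) and Pim1 (-0.63, adjusted p = 0.0101) were lower without LIF as well, with overlapping libraries. Pim1 lost its call without 1 of the 33 libraries (adjusted p = 0.0634 at most). Lifr (0.23, adjusted p = 0.429), Il6st (0.22, adjusted p = 0.393), Stat3 (-0.22, adjusted p = 0.224), Junb (-0.25, adjusted p = 0.297) and Gbx2 (0.50, adjusted p = 0.534) did not pass. This average joins RA and ND, between which Lifr, Stat3, Socs3, Klf5, Tbx3, Junb and Gbx2 differed in the comparison above. Socs3, Klf5 and Tbx3, lower in the average, were not called in RA against NS.

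Sorbitol at 300 mM, a hyperosmotic stress given with LIF, was the condition in which Klf4, Klf5 and Tbx3 rose above NS, while Pim1 fell. Over all genes tested 15.1% rose and 15.2% fell. The median log2 fold change of the 10 genes was 0.64 against 0.00406 over all genes tested.

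Tbx3 was at 565, 562 and 561 CPM in the Sorb300 libraries, far above the 68.8 to 168 CPM of NS. It rose 4.96-fold (log2 fold change 2.31 ± 0.36 SE, adjusted p = 1.6e-05). Klf5 was at 1120, 960 and 1390 CPM and rose 2.66-fold with no overlap (1.41 ± 0.21 SE, adjusted p = 6.93e-06). These calls held without each of the 6 libraries. Klf4 was at 426, 225 and 268 CPM and rose 1.98-fold (0.99 ± 0.31 SE, adjusted p = 0.0139). Replicate 1 was the highest, and without it the log2 fold change was 0.67 with an adjusted p of 0.104. The call of Klf4 was also lost without NS replicate 1 or 3.

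Socs3 did not follow these factors: at 165, 234 and 169 CPM it lay within the NS range (log2 fold change -0.04, interval -0.751 to 0.678, adjusted p = 0.95). Pim1 was at 115, 178 and 203 CPM and fell 1.91-fold (-0.94 ± 0.32 SE, adjusted p = 0.0266), with 1 Sorb300 library above the lowest of NS. Its call was lost without Sorb300 replicate 1 or 2 or NS replicate 2 or 3. With the fit limited to Sorb300 and NS, or without NS replicate 3, 2 of the 10 genes were called, Klf5 and Tbx3.

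Stat3 was at 222, 328 and 350 CPM in Sorb300, its highest group mean (0.57 ± 0.24 SE, adjusted p = 0.0705). Junb was at 38.4, 96.1 and 80.8 CPM (0.70 ± 0.32 SE, adjusted p = 0.087). In both genes replicate 1 was the lowest of its group and fell within the NS range, and without it Stat3 passed at an adjusted p of 0.0186 and Junb at 0.011. Lifr was the reverse, with replicate 1 at 69.2 CPM and the other libraries at 22.3 and 17.9 CPM (0.50, adjusted p = 0.344), and its log2 fold change was -0.37 without replicate 1. Il6st at 24.1, 13.3 and 10.6 CPM (-0.14, adjusted p = 0.802) and Gbx2 at 6.43, 10.7 and 3.21 CPM (1.46, adjusted p = 0.188) overlapped NS.

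Against the 27 other LIF libraries, 6 of the 10 genes were higher in Sorb300 and none was lower (26.9% and 22.4% of all genes). Tbx3 had a log2 fold change of 2.67 ± 0.21 (SE), Klf5 of 1.36 ± 0.14 and Klf4 of 1.35 ± 0.20, each with all 3 Sorb300 libraries above all 27. No share of all genes is given for this separation, so it describes these 3 genes only. Stat3 (0.45, adjusted p = 0.0269), Junb (0.68, adjusted p = 0.0109) and Gbx2 (1.94, adjusted p = 0.0028) passed with overlapping libraries. Without Sorb300 replicate 2 the count was 3. Against ND, 7 of the 10 were higher in Sorb300 and none was lower (19.3% and 18.5% of all genes), from 2.13-fold for Stat3 to 24.1-fold for Tbx3.

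None of the 10 genes passed against NS in any of the 8 toxicant groups. Of all genes tested, 0.0741% were called in PFOA60 and 0% in each of the other 7. With the 24 toxicant libraries averaged, again none of the 10 and 0.0889% of all genes were called. DESeq2 also called none of the 10 in these comparisons. At an unadjusted p under 0.05 there was 1 gene, Pim1, in BP4, Cort60, DEP5 and PFOA100, there were 2 (Klf4 and Pim1) in PFOA60, and there was none in BP1, Cort10 and DEP10.

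Pim1 was at 110, 141 and 149 CPM in PFOA60, all below NS (log2 fold change -1.25 ± 0.33 SE, adjusted p = 0.141). Same-numbered PFOA60 and NS libraries deviated together, and Pim1 in the fit that blocks on replicate number fell by 1.21 on the log2 scale (adjusted p = 0.00552). It was also called without NS replicate 1, its lowest NS library (-1.51, adjusted p = 0.0364). In the average of the toxicants Pim1 had a log2 fold change of -0.69 (unadjusted p = 0.00457, adjusted p = 0.389). Klf4 in PFOA60, at 75.3, 81.6 and 64.3 CPM, was also below every NS library (-1.06, adjusted p = 0.21). The summed pluripotency markers were at 2960 to 3270 CPM in PFOA60, below the 3660 to 4420 CPM of NS. The main fit called none of the 10 markers there, while DESeq2 called Nanog lower. The part of the lower marker sum in the Pim1 and Klf4 values was not tested.

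The other members in the toxicant groups lay within wide ranges. Socs3 had group means from 129 ± 37.8 CPM in PFOA60 to 215 ± 48.1 CPM in Cort60. Within DEP5 it was at 69.4, 215 and 181 CPM and within DEP10 at 65.9, 201 and 163 CPM, so that replicate 1 was far below the others in both. Junb was also lowest in these libraries, at 22.5 CPM in DEP5 replicate 1 and 24.5 CPM in DEP10 replicate 1. Stat3 ran from 151 to 355 CPM over the 24 libraries with a median of 218 CPM, Lifr from 14.2 to 56.9 CPM with a median of 35.3 CPM, and Gbx2 from 0 to 6.51 CPM with a median of 1.34 CPM.

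Ordered by group mean, ND was lowest for all of the 10 genes but Il6st and Klf4. The share of all genes tested with ND lowest was not computed, so this order is a description only. The ND libraries did not overlap those of the next group for Stat3 (NS), Socs3 (RA), Klf5 (RA) and Tbx3 (DEP5). For Stat3 they did overlap BP1, a group with LIF, whose replicate 2 was at 151 CPM against 117 to 155 CPM in ND. The ND libraries overlapped the next group for Lifr, Junb, Pim1 and Gbx2. Klf4 was lowest in RA, overlapping ND, and both were apart from PFOA60, the next group at 73.7 ± 8.74 CPM. At the other end Sorb300 was highest and apart from the next group for Klf4 (NS), Klf5 (Cort10) and Tbx3 (PFOA100). RA was highest for Lifr, Il6st and Gbx2, overlapping the next group each time. NS was highest for Pim1, overlapping Cort10. All other neighbours in these orders overlapped, apart from RA and PFOA100 for Junb.

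Over the 12 group means of log2 CPM, the pairs of members with the highest correlation were Stat3 and Junb (r = 0.937), Klf4 and Klf5 (r = 0.9) and Klf5 and Tbx3 (r = 0.888), and the lowest was that of Il6st and Klf4 (r = -0.678). The values differed without ND, RA and Sorb300. Over the 9 other groups, all with LIF, r was 0.531 for Stat3 and Junb, 0.685 for Klf4 and Klf5, -0.297 for Klf5 and Tbx3 and -0.468 for Il6st and Klf4. The highest there was that of Klf4 and Pim1 (r = 0.821) and the lowest that of Stat3 and Klf4 (r = -0.926). Outside the 10 genes, among 7967 candidates, Socs3 was closest to Bcl3 (r = 0.902), Nrp2 (0.897), Tubb2b (0.866), Susd2 (0.85) and Sik1 (0.849). Klf4 was closest to Sec14l1 (0.964), Ckb (0.963), Pnkd (0.96), Laptm5 (0.959) and Krt42 (0.954). Lifr was closest to Npnt (0.901), Krt19 (0.874), Lrig2 (0.853), Ston2 (0.845) and Gpcpd1 (0.831). These are descriptions over 12 points that share the same libraries and scaling, and ND, RA and Sorb300 lie apart from the rest.

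The other genes of the pathway were followed in 5 lists, in the same comparisons with NS. Their counts stand beside the shares of all genes tested, which were 0.259% higher and 0.933% lower in ND, 10.3% and 13.8% in RA, and 15.1% and 15.2% in Sorb300. Of the ligands and receptors of the interleukin-6 family, 9 of 14 could be tested. None passed in ND, at an unadjusted p under 0.05 or by DESeq2 either. Il6ra, the interleukin-6 receptor subunit, rose in RA from a mean of 1.13 to one of 11.9 CPM, 10.2-fold (adjusted p = 0.00287). In Sorb300 it rose likewise to 11.9 CPM, 10.1-fold (adjusted p = 0.00222), and both calls held without each library. Its NS libraries were near the detection limit, at 0.664, 1.47 and 1.24 CPM, so both folds rest on few NS counts. Cntfr, the ciliary neurotrophic factor receptor subunit, rose in RA 7.98-fold (adjusted p = 0.0394), from 7 counts in NS to 89. The call of Cntfr was lost without NS replicate 1 or 2 or RA replicate 1, and also with no filter on low counts. Lif itself was at 2.40 CPM in NS and 7.23 CPM in Sorb300 (1.64, adjusted p = 0.0833). The replicate block called Lif higher there and DESeq2 did not, and replicate numbers did not pair in Sorb300. Against the 27 other LIF libraries, both the block and DESeq2 called Lif higher in Sorb300.

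Of the 10 other JAK kinases and STAT factors tested, none passed in ND (1 at an unadjusted p under 0.05, and none by DESeq2). Jak1, the main kinase at gp130, was at 160 CPM in NS and 126 CPM in ND (-0.35, adjusted p = 0.512), and Jak2 at 9.71 and 15.5 CPM (0.66, adjusted p = 0.544). In RA Jak2 rose (1.90 ± 0.44 SE, adjusted p = 0.00177), while Jak3 (-1.44, adjusted p = 0.0122) and Stat6 (-0.95, adjusted p = 0.0348) fell. Jak3 was lost without NS replicate 3 or RA replicate 2, and with the replicate 3 libraries of all groups left out. Stat6 was lost without any of the libraries but NS replicate 1. The Stat6 call was also lost with RLE scaling, with no filter, with the replicate 3 libraries left out and with the fit limited to RA and NS. In Sorb300, where 15.2% of all genes fell, 4 of the 10 did and none rose: Stat5b (8.01-fold, adjusted p = 6.57e-07), Stat2 (-1.54, adjusted p = 9.99e-05), Jak1 (-0.91, adjusted p = 0.00183) and Jak2 (-1.76, adjusted p = 0.007). Stat5b was at 17.6, 11.1 and 16.1 CPM in NS and near the detection limit in Sorb300, at 1.65, 2.66 and 0.918 CPM. The calls of Stat5b, Stat2 and Jak1 held without each library. That of Jak2 was lost without Sorb300 replicate 2 or NS replicate 2, and with the fit limited to Sorb300 and NS. The median log2 fold change of the list in Sorb300 was -0.64, against 0.64 for the 10 genes of the main set and 0.00406 over all genes tested.

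Among 15 of 16 negative regulators tested, none passed in ND (3 at an unadjusted p under 0.05, none by DESeq2), so Socs3 was the only inhibitor of the pathway called there. Pias4, a SUMO ligase, fell in RA (-0.95, adjusted p = 0.0021). In Sorb300 Socs2, a relative of Socs3, fell (-1.29, adjusted p = 0.000786), as did the phosphatase Ptpn2 (-1.03, adjusted p = 0.00147), while the phosphatase Ptpn1 rose (0.98, adjusted p = 0.00089). The Ptpn2 call was lost with the replicate 3 libraries of all groups left out and with the fit limited to Sorb300 and NS.

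Of the 16 genes of the SHP2, PI3K and ERK branches, none passed in ND (1 at an unadjusted p under 0.05, and none by DESeq2). With the replicate block Akt2 was called there. Ptpn11, which encodes SHP2, was at 41.5 CPM in NS and 49.6 CPM in ND (0.26, adjusted p = 0.598). It rose in RA (0.56, adjusted p = 0.0327), as did the adaptor Gab2 (2.78, adjusted p = 0.000365) and the kinase Akt1 (1.47, adjusted p = 0.000477), while Map2k1, which encodes MEK1, fell (-1.12, adjusted p = 0.000869). In Sorb300 Ptpn11 (0.70, adjusted p = 0.00649) and Map2k2, which encodes MEK2 (1.59, adjusted p = 1.58e-05), rose and Mapk3, which encodes ERK1, fell (-0.998, adjusted p = 0.00204). The Ptpn11 call in RA was lost without NS replicate 2 or 3 or RA replicate 1 or 3. It was also lost with no filter, with the replicate 3 libraries of all groups left out and with the fit limited to RA and NS. In Sorb300 it was lost under the same 2 alternatives as that of Ptpn2.

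The list of 18 other reported STAT3 targets had 2 members called in ND, both lower. Tcfcp2l1, a self-renewal factor now named Tfcp2l1, was at 128, 229 and 224 CPM in NS and 50, 28 and 50.3 CPM in ND (-2.18 ± 0.31 SE, adjusted p = 0.000114). Bcl3, an IκB family member, was at 42.5, 42.3 and 22.9 CPM in NS and 9.81, 6.59 and 7.65 CPM in ND (-2.16 ± 0.40 SE, adjusted p = 0.00241). Neither gene overlapped between the groups, and both calls held without each library. With the replicate block 5 of the 18 passed in ND, 4 of them lower, and DESeq2 called 3, all lower. In RA Tcfcp2l1 was again low, at 31.7, 38.1 and 58.4 CPM (-2.18 ± 0.31 SE, adjusted p = 3.83e-06), whereas Bcl3 at 18.8, 25.3 and 36.6 CPM was not called.

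Also in RA, Jun rose (2.26 ± 0.32 SE, adjusted p = 4.09e-06), and Pim3 (-1.41, adjusted p = 0.00143), Icam1 (-1.93, adjusted p = 0.00845) and Sgk1 (-2.03, adjusted p = 0.0343) fell. The Sgk1 call was lost without any of the 6 libraries and with no filter, and that of Icam1 without NS replicate 3. In Sorb300, where 15.1% of all genes rose, 4 of the 18 did and none fell. Muc1 rose from 4 counts in NS to 312 counts (log2 fold change 6.26 ± 1.02 SE, adjusted p = 2.13e-05), Kdm3a rose 2.87-fold (adjusted p = 0.0046), Myc rose from 9 to 153 counts (adjusted p = 0.0135) and Bcl6 rose 3.50-fold (adjusted p = 0.0173). Of these, Muc1 was called without each library, while Myc was lost without NS replicate 2 or 3, Bcl6 without NS replicate 2 and Kdm3a without Sorb300 replicate 1. The Myc call was also lost with the replicate 3 libraries of all groups left out. Myc in ND and RA did not pass (adjusted p = 0.871 and 0.204), and neither did Tcfcp2l1 in Sorb300 (-0.43, adjusted p = 0.286).

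**Figure D4:**
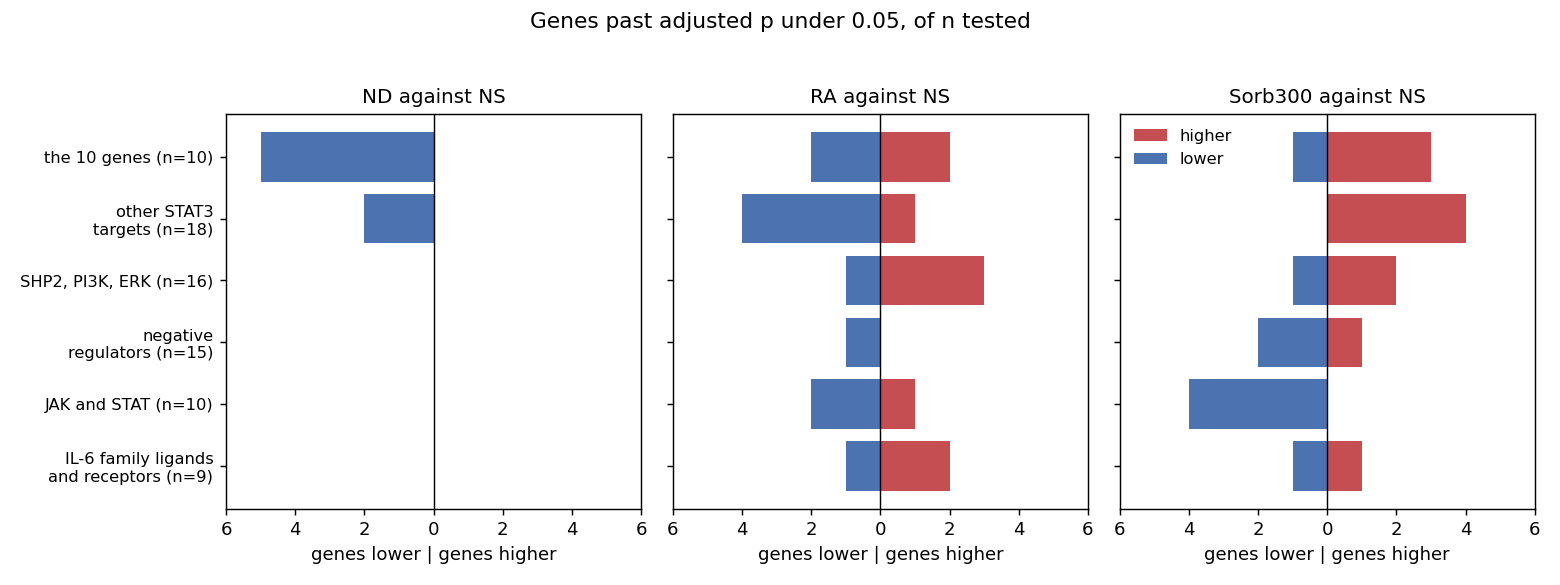
Number of genes called lower (left of 0) or higher (right of 0) at an adjusted p under 0.05 in each list of pathway genes, with the number tested beside the list name, in ND, RA and Sorb300 against NS. In ND the calls are 5 of the 10 genes and 2 of 18 other STAT3 targets, all lower, and none elsewhere.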

How the data were processed

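The 11 deposited tables, 1 for each group against NS, hold the authors' raw read counts per gene, with no normalization, and repeat the same NS columns. Per the submitters' processing notes, CASAVA 1.8.2, STAR, HTSeq and edgeR were named and the build was mm9. The sources used here do not give what each did, the annotation or whether strand was used. The deposited columns of log2 fold change, log2 CPM, p-value, fold and score-type statistics (likelihood ratio, group averages and SDs) are the authors' own and went unused. Libraries were Lexogen QuantSeq 3′ libraries, per the labels' protocols.

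Genes were kept by filterByExpr, which left 13498. Libraries were scaled by TMM (factors 0.801 to 1.25, the highest in RA), and 1 model with a mean per group was fitted with edgeR 4.0.16 in R 4.3.3 (robust glmQLFit; 24 residual degrees of freedom; common BCV 0.306). The procedure was first tested on simulated counts, drawn with the same spread for every gene and no replicate effect. Those counts differ in this from the data, whose replicates were uneven. Each SE was derived from the F statistic as |log2 fold change| / √F, and intervals are 95%. Pattern likeness used log2 CPM with a prior count of 2, among genes with a mean of at least 10 CPM and no predicted-gene symbol. Alternatives were a replicate block, RLE scaling, DESeq2 1.42.0, no filter, fits of the groups compared only, raw totals, a prior count of 0.5, and leaving out libraries.

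The rule for names was all 10 genes in the main comparisons, any that passed among the toxicants, the 3 smallest adjusted p of each pathway list and Lif, Jak1, Jak2, Ptpn11, Myc and Tcfcp2l1. Bcl6, Icam1, Sgk1, Akt2, Tubb3, Nes and Mtap2 fall outside it and were named after their values were seen. The result of 1 gene of the ligand and receptor list is not reported here. The genes and lists were chosen with earlier results of these data known. Replicate numbers were taken to pair where every same-numbered pair of libraries correlated above 0.1 in deviations from group means. This held against NS for ND (0.16 to 0.221), for PFOA60 (0.124 to 0.357) and for BP1, BP4, Cort10, DEP5 and DEP10. The labels call the triplicates biological experiments. Chi-square per degree of freedom between replicates was 5.15 to 63.0. Promoter sequences are RefSeq's for GRCm38.p6, and no coordinates of mm9 are given.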

Additional observations from a re-analysis of the deposited data

How the results depend on the processing

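Counts of the 10 genes called stayed within 1.5 times in 162 of 168 fits that left out a library and in 93 of 96 other alternatives. The exceptions were as follows. Leaving out single libraries gave 1 to 4 genes in RA against NS, 2 to 4 in Sorb300 against NS, 3 to 7 in Sorb300 against the other LIF libraries and 0 to 1 in PFOA60. The groups compared only gave 2 in Sorb300 against NS. The replicate block gave 1 in the toxicants together and 1 in PFOA60, both Pim1, whose log2 fold change in the toxicants was -0.67 (adjusted p = 0.0243). It gave 6 in ND, 5 in RA and 6 in Sorb300 against NS, adding Junb (ND), Socs3 (RA, -0.98, adjusted p = 0.0249) and Stat3 and Junb (Sorb300, adjusted p = 0.00979 and 0.0449). Numbers did not pair in RA, where pairs correlated at 0.0372 to 0.147, or in Sorb300.

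No value that was called turned its direction under these alternatives. Of those not called, with replicate 3 of all groups left out Il6st in ND was -0.004165, Socs3 in Sorb300 0.01077, Klf4 in RA against ND 0.02093 and Klf5 in the toxicants -0.0221. Socs3 in Sorb300 was 0.02436 with RLE and 0.02406 with DESeq2. Leaving out single libraries gave -0.2705 to 0.07173 for Lifr in ND. Against NS, Sorb300 gave -0.374 to 0.7925 for Lifr, -0.5709 to 0.4502 for Il6st and -0.2426 to 0.1103 for Socs3. Lifr in Sorb300 ran from -0.218 to 0.9362 against ND and from -0.6806 to 0.4676 against the LIF libraries, where Socs3 ran from -0.1342 to 0.188. Gbx2 without against with LIF ran from -0.6057 to 0.8236. In the toxicants the ranges were -0.02192 to 0.8966 for Il6st, -0.2329 to 0.02178 for Socs3, -0.01836 to 0.1877 for Klf5, -0.6494 to 0.02785 for Tbx3, -0.09796 to 0.2023 for Junb and -0.793 to 0.009034 for Gbx2. The cause was not tested.

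Over all genes, ND against NS gave 161 calls, with 555 under the block, 325 by DESeq2, 42 without the replicate 3 libraries and 32 to 312 without single libraries. Sorb300 against NS gave 4102, and 2285 with the groups compared only, where RA against ND gave 4072 in place of 2450. PFOA60 gave 10, with 47 under the block and 57 by DESeq2, and the toxicants 12 and, under the block, 47. RA levels on raw totals were higher, as for Stat3 at 305 CPM in place of 251 CPM. Gbx2 had no value in fits of groups in which it was filtered out. With 0 to 16 counts a library in ND and NS, depth limits Gbx2 most.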
